A study of Mus musculus with 4 samples.

Results

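Visceral adipose stromal cells are the Dcn-bearing cells of the intraperitoneal (IP) fat libraries, and they were chosen here by their own counts of unique molecular identifiers (UMIs), each of which stands for 1 captured RNA molecule. Barcodes were kept from 200 genes upward and up to a mitochondrial share of 25% of UMIs. A kept cell was a member when it held at least 3 UMIs of Dcn, at least 2 UMIs of Pdgfra, Lum and Dpt together, and no UMI of Ptprc, Pecam1 or Cdh5. The rule found 222 of 675 kept cells in WT IP, 32.9% (95% Clopper-Pearson interval 29.4 to 36.6), and 164 of 521 in KO IP, 31.5% (27.5 to 35.7). These 386 cells came from 1196 kept cells of the IP libraries and 4136 of the whole series. Because measured values chose the members, the genes of the rule are described below and not compared.

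The study profiled single cells from subcutaneous (SC) and IP adipose tissue in 4 libraries, 1 for each depot and genotype. WT mice were Tie2e-cre; TERT+/+; mTmG and KO mice, in which Tert was floxed, were Tie2e-cre; TERTfl/fl; mTmG. All were males of 7 months that had been on a high-fat diet for 5 months, and both genotypes therefore carried the recombinase, the reporter and the diet. The recombinase is driven by regulatory sequence of Tie2 (Tek), a receptor of endothelial cells, and is not aimed at stromal cells. The labels do not say how many mice stand behind a library and speak of cells in one step of the protocol and of nuclei in another. With 1 library per group no test between groups was possible, and every interval given covers counting error only, not differences between mice. Intervals of ratios rest on summed UMIs and also leave out the spread among cells.

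Adipose stromal cells (ASC) are the fibroblast-like cells of fat. They include the progenitors that can become adipocytes, they build the collagen and elastic matrix around adipocytes and vessels, and they release chemokines, complement factors and growth factors. In mouse fat, progenitors with Pi16 and Dpp4 lie in the connective tissue and can give rise to more committed, Icam1-bearing preadipocytes that already carry adipocyte genes. Visceral stromal cells differ from subcutaneous ones by developmental transcription factors such as Wt1 and Tcf21, while the mesothelium, a sheet of Wt1-bearing cells, covers visceral fat and has no counterpart in subcutaneous fat.

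The members were deeply sampled. The median was 22197 UMIs and 4998 genes per cell in WT IP, with a range of 558 to 66619 UMIs, and 21533 UMIs and 5078 genes in KO IP, with a range of 585 to 157141 UMIs. Mitochondrial UMIs made up a median of 2.37% and 2.22%. Dcn, a collagen-binding proteoglycan, had a median of 257 UMIs per member in WT IP and 280 in KO IP, far from the limit of 3. At that limit stood 3 members in each library, and 2 cells in WT IP and 3 in KO IP lay just outside with 2 UMIs. Leaving out cells with a UMI of Pecam1 or Cdh5 removed 45 and 51 cells, of which 13 and 9 had a single such UMI. Across all 4 libraries there were 4927 barcodes and 49915547 UMIs, between 10015201 UMIs in KO IP and 15533961 in KO SC. Tert, the targeted gene (GRCm38 chr13:73626911-73649843), had 5 UMIs in 4 members of WT IP and 3 UMIs in 3 members of KO IP, and none in the stromal cells of WT SC or KO SC chosen by the same rule. These numbers are too small to check the labels.

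A pair of features set the libraries apart, and results are therefore given with and without the cells concerned. First, WT IP and KO SC shared 93 cell barcodes, whereas every other pair of libraries shared 0 or 1. Of the 93, 53 were members in WT IP and 50 met the same rule in KO SC, 36 of them in both. The shared barcodes held a median of 35392 UMIs in WT IP and 601 in KO SC, 1.71% of the former. Second, 13 of 164 members in KO IP (7.93%) but 1 of 222 in WT IP (0.450%) held at least 2 UMIs of 8 mesothelial markers (Msln, Upk3b, Upk1b, Lrrn4, Krt19, Krt7, Muc16 and Gpm6a). Stromal cells of SC chosen by the same rule also reached this limit. Without such cells WT SC fell from 82 to 71 cells and KO SC from 156 to 151. The limit is therefore not particular to KO IP or to visceral fat, and Wt1 had no UMI in the 82 cells of WT SC. However, only 1 of the 8 markers had at least 20 UMIs over the stromal cells of both SC libraries, against all 8 in IP. Those 13 cells held 22.6% of all member UMIs of KO IP, with a median of 60443 UMIs per cell against 17876 in the other members. They carried Dcn, with a median of 536 UMIs, and Wt1 and Gata6 in 13 of 13 cells, yet Tcf21 and Agt were at 0 in all of them, and Col1a1 stood at 783 CPM (counts scaled to 1000000 UMIs) against 3487 in the rest of KO IP. Their identity, doublets included, was not tested. Scrublet, a doublet caller, marked 3 of 675 and 4 of 521 kept cells in the IP libraries, 1 member in each, a share of 0.444% and 0.768%, and no doublets were removed.

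**Figure D1:**
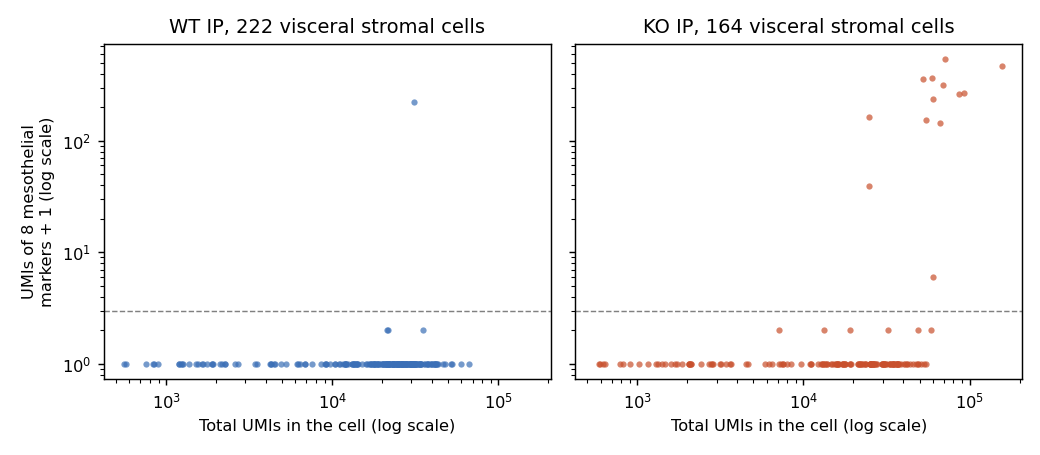
Mesothelial marker UMIs in each visceral stromal cell against the cell's total UMIs, both on log scales, with 1 added to the marker UMIs; 1 dot is 1 cell and the dashed line is the limit of 2 UMIs. In KO IP 13 cells lie above the line, most of them at the deep end of the library, and in WT IP 1 cell does.

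Markers of other cell types were compared with their level in the other kept cells of the same library. Macrophage markers summed to 24.6 CPM in WT IP and 21.6 CPM in KO IP members, against 5395 and 1933 CPM, T cell markers to 8.0 and 1.28 CPM against 729 and 856 CPM, and B cell markers to 1.47 and 4.62 CPM against 368 and 583 CPM. Cell-cycle genes stood at 32.0 and 20.3 CPM against 412 and 212 CPM, and haemoglobin at 289 and 66.0 CPM against 40569 and 1334 CPM. Leukocyte, cycling and red cell genes were thus far below the other cells. The gap was smaller for endothelial markers other than those of the rule, at 121 and 122 CPM against 406 and 214 CPM, with Tie1 and Cldn5 at 0 in both libraries. Tek alone made up 77.1 CPM of that sum in WT IP members and 79.1 CPM in KO IP members. Mesothelial markers stood at 46.9 and 848 CPM against 87.2 and 907 CPM, and at 0.636 and 1.99 CPM without the cells described above. Markers of mural cells, the contractile cells of vessel walls, stood at 325 and 97.1 CPM against 474 and 1149 CPM, and 25 cells of WT IP and 8 of KO IP held at least 10 such UMIs. Schwann cell markers (4.42 and 4.88 CPM against 6.40 and 4.48 CPM) and adipocyte markers (0.63 and 0.77 CPM against 0.96 and 0.21 CPM) were scarce in all cells.

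The label of visceral stromal cells was checked against Pdgfra and Dcn, which the rule used, and Tcf21 and Agt, which it did not. Tcf21, a helix-loop-helix factor of mesenchymal cells (GRCm38 chr10:22817281-22820174), had a UMI in 52.7% of WT IP members (45.9 to 59.4) and 54.3% of KO IP members (46.3 to 62.1), and in 0 of 289 and 0 of 201 leukocytes, kept cells with Ptprc and no Dcn, which allows shares of up to 1.27% and 1.82%. The leukocytes were shallower, at medians of 9190 and 7601 UMIs, but after thinning every cell to 3000 UMIs, which left out 26 and 28 shallower members, the Tcf21 shares in members were still 20.1% and 19.0%. Agt, which encodes the precursor of angiotensin, had a UMI in 30.6% of WT IP (24.6 to 37.1) and 14.6% of KO IP members (9.61 to 21.0), in 13.8% and 6.87% after thinning, and in no leukocyte of either library. Wt1 had a UMI in 63.5% and 65.2% of members and Gata6 in 55.4% and 62.2%, with at most 0.692% of leukocytes for either gene. General fibroblast markers were nearly universal, with Col1a1 in 93.2% and 92.1% of members and 5.19% and 4.98% of leukocytes, and Cd34 in 83.3% and 82.3% of members and 1.04% and 0% of leukocytes. So both label genes outside the rule carried UMIs in the members, Tcf21 in close to 50% of cells (44.97%, 37.3 to 52.8, in WT IP without shared barcodes) and Agt in fewer.

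Beyond the genes of the rule, matrix and signalling genes stood highest in the members relative to all other kept cells of the same library. As a description of how the members were chosen and not a finding, log2 ratios in WT IP and KO IP were 3.07 and 2.55 for the matricellular gene Ccn2, 2.38 and 3.28 for the microfibril gene Mfap4, and 2.25 and 2.53 for the Wnt antagonist Sfrp1. Postn, a matricellular gene, stood at 2.05 and 2.23, Col14a1 at 2.45 and 2.15 and the protease inhibitor Timp1 at 1.98 and 1.91.

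Stromal cells of SC, found by the same rule, numbered 82 of 971 kept cells in WT SC (8.44%) and 156 of 1969 in KO SC (7.92%), and gave the depot comparison. Shared barcodes bore on it directly: in KO SC all 5 UMIs of Tcf21, all 6 of Wt1 and all 19 of Col6a5 lay in them. Levels are therefore given for cells without shared barcodes and without mesothelial markers, which left 169 (WT) and 151 (KO) cells of IP and 71 (WT) and 101 (KO) of SC. In WT SC all 82 stromal cells remained without shared barcodes, so the fall to 71 came from the mesothelial markers alone. Wt1, a zinc-finger factor of visceral mesenchyme, stood at 138 CPM in WT IP and 239 CPM in KO IP and had no UMI in either SC library, so it was at least 59.7-fold and 109-fold higher in IP when 3 counts over the SC group are taken as the limit. Tcf21 stood at 99.8 and 85.9 CPM in IP against 0 in SC, at least 43.1-fold and 39.4-fold higher. Both visceral factors were thus separated from SC by more than an order of magnitude in each genotype.

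Several other genes that marked IP encode secreted proteins. Hp, haptoglobin, stood at 103 CPM in WT IP and 217 CPM in KO IP and at 0 in SC, at least 44.5-fold and 99.4-fold higher. Col6a5, a collagen VI chain (GRCm38 chr9:105856078-105960643), stood at 472 CPM in WT IP against 2.32 CPM in WT SC, and at 706 CPM in KO IP against 0 in KO SC. Serpina3n, a protease inhibitor, stood at 242 and 420 CPM in IP against 30.1 and 25.5 CPM in SC. Agt was also higher in IP, at 95.9 CPM against 11.6 CPM in WT (log2 ratio 3.01, 2.30 to 3.91) and 35.8 CPM against 10.2 CPM in KO (1.77, 1.01 to 2.73). Gata6 differed less, at 59.4 against 32.4 CPM in WT and 97.9 against 51.7 CPM in KO, and Gata4 and Bnc1 had at most 2 UMIs in each library. With every member kept, the IP levels of Col6a5 were 414 CPM in WT and 604 CPM in KO, and the KO SC level was 12.9 CPM.

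Among the 8 genes that most favoured SC, Akr1c18, a steroid-metabolising reductase, gave log2 ratios of IP to SC of -5.44 in WT and -8.29 in KO, Krtdap -4.91 and -5.56, Dmkn -4.37 and -4.84, Car8, a carbonic anhydrase-related protein, -4.37 and -4.28, and Procr, the protein C receptor, -2.86 and -3.09. With every member kept, Dmkn stood at -1.21 in KO. Tbx15, a T-box factor, was at 1.07 CPM in WT IP and 1.66 CPM in KO IP against 159 and 151 CPM in SC (-6.99 and -6.37), Rorb, a nuclear receptor, gave ratios of -7.21 and -7.10. Of the subcutaneous transcription factors listed, Shox2, a homeobox factor, had no UMI in IP and 44 and 52 UMIs in SC. Hoxc10 stood at 1.79 and 1.66 CPM in IP and at 40.9 and 37.1 CPM in SC. Igfbp5, which binds insulin-like growth factors (GRCm38 chr1:72857932-72874884), stood at 86.2 CPM in WT IP and 24.9 CPM in KO IP against 3613 and 3549 CPM in SC, ratios of -5.39 and -7.15. En1 was also lower in IP, with 5 UMIs against 22 in SC in WT and 16 against 27 in KO (log2 ratios -3.14 and -1.87). Nr2f1 went the other way, with ratios of 1.45 in WT and 1.66 in KO. UMIs of Hoxc8 and Hoxc9 were found in both depots. Hoxc8 was at 83.0 CPM against 50.9 CPM in WT and 77.0 against 36.4 CPM in KO, higher in IP, and Hoxc9 at 24.0 against 35.5 CPM and 26.5 against 30.6 CPM.

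**Figure D2:**
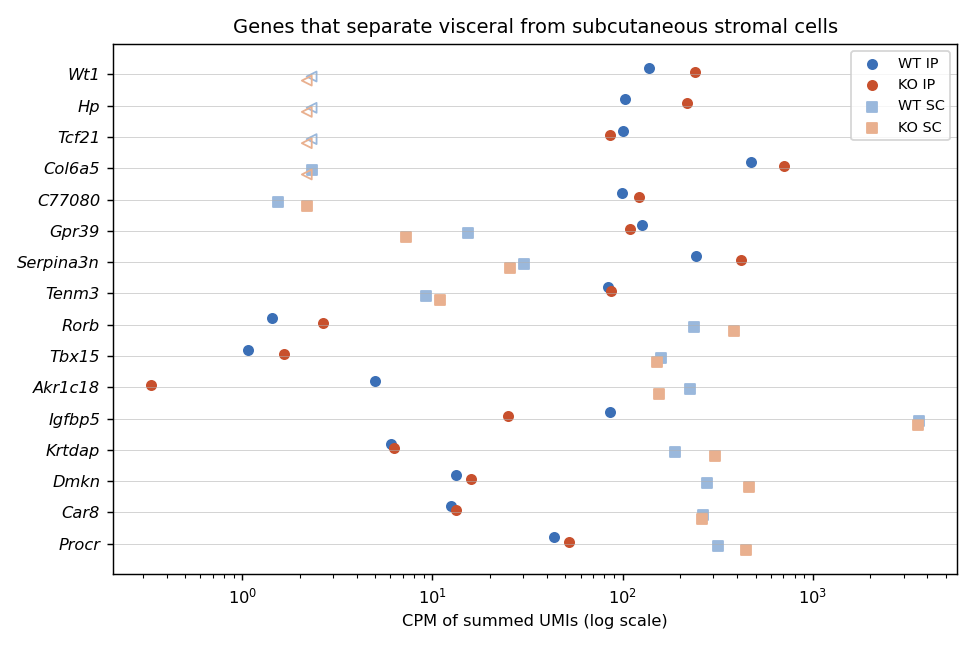
CPM of summed UMIs (log scale) in stromal cells without shared barcodes and without mesothelial markers, for the 8 genes that most favoured IP (top) and the 8 that most favoured SC (bottom) in both genotypes. Circles are IP and squares SC, and open triangles mark genes at 0 UMIs, drawn at the limit of 3 counts, 2.32 CPM in WT SC and 2.18 CPM in KO SC; no gene has overlapping IP and SC levels.

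The sequences before the start sites of 3 of these depot genes are shown because Tcf21 itself binds the E-box, CANNTG, as part of a helix-loop-helix dimer. They come from RefSeq on GRCm38.p6, on the minus strand, 5′ to 3′, for Tcf21 at chr10:22820175-22820393, for Col6a5 at chr9:105960644-105960893 and for Igfbp5 at chr1:72874885-72875115, with every CANNTG in capitals.
Tcf21: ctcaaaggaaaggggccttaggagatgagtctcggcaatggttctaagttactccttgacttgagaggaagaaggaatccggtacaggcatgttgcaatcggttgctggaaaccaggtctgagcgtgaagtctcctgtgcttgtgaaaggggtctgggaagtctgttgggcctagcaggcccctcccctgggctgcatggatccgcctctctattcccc
Col6a5: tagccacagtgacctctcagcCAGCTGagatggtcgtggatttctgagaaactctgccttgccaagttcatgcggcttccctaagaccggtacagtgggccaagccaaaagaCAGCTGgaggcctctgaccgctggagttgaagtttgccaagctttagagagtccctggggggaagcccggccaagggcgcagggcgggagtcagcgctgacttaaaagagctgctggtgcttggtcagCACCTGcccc
Igfbp5: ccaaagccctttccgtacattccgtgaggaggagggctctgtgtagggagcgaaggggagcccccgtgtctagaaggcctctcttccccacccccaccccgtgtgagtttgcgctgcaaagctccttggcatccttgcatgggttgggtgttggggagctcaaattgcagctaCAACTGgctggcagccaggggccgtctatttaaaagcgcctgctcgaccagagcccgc
The Tcf21 window holds 0 such motifs, the Col6a5 window 3 and the Igfbp5 window 1. Over all 32851 promoter windows of 250 bases, 66.2% hold CANNTG on either strand, so its presence in a window is common. GATAA, the core bound by GATA factors, is in 22.6% and TATAAA in 12.4% of windows, searched on both strands, and none of the 3 windows holds either.

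Within the visceral stromal cells the main division followed was that of Pi16 and Dpp4, which mark early progenitors. A UMI of either gene was found in 136 of 222 WT IP members, 61.3% (54.5 to 67.7), and in 127 of 164 KO IP members, 77.4% (70.3 to 83.6). Thinned to 3000 UMIs the shares were 34.0% (27.6 to 41.3) and 54.7% (45.7 to 63.0). The share was thus larger in KO IP at both depths. Pi16, a secreted peptidase inhibitor (GRCm38 chr17:29317680-29330593), accounted for most of it, with 53.2% and 70.1% of members and 2.42% and 5.97% of leukocytes, whereas Dpp4, a surface peptidase also known as CD26, was in 34.7% and 42.1% of members but also in 19.0% and 17.9% of leukocytes. Without mesothelial-marker cells the shares of either gene were 61.1% and 75.5%, and without shared barcodes the WT IP share was 56.2%.

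Cells with Pi16 or Dpp4 were then set against the other members of their own library. The cells with a UMI were deeper, at a median of 24747 UMIs against 16988 in WT IP and 25478 against 3157 in KO IP. The 8 highest and 8 lowest genes of this division kept their direction in cells of at least 10000 UMIs. Most of the 8 highest, Limch1 and Adamts16 among them, had 0 UMIs in the other members of KO IP, so their direction there could hardly turn. Among the lowest, 69.4% of the Pcdh9 UMIs in those members lay in 1 cell. The part of depth was therefore not tested, for these genes, over all genes or for the lists. In WT IP 10.1% of 10577 genes were higher and 9.10% lower past 1.5-fold in cells with Pi16 or Dpp4, and in KO IP 20.3% and 21.7% of 10483 genes. The other early progenitor genes were higher past 1.5-fold for 11 of 11 genes in WT IP (median log2 ratio 2.13) and 10 of 10 in KO IP (2.06, or 1.46 with the 3 genes at 0 in the other cells set at their bound). Committed preadipocyte genes went the other way, with 6 of 14 lower in WT IP (median -0.55) and 12 of 13 in KO IP (-1.10, or -0.71 without mesothelial-marker cells), and none was higher. This is a description, since the lists hold genes already known to go with or against Pi16 and Dpp4. The KO IP cells without Pi16 or Dpp4 numbered 37, so single cells weighed on some genes. Of the UMIs of Vcam1 in them, 46.7% lay in 1 cell. With the highest cells left out, Vcam1 moved from -0.72 to 0.03 in KO IP, while Sparcl1 moved from -1.10 to -0.85.

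Among the early progenitor genes, Sema3c, a secreted guidance protein, gave log2 ratios of 5.20 and 3.14 in WT IP and KO IP, and Cd55, which protects cells from complement, 3.26 and 2.93. Limch1, an actomyosin regulator, had 447 UMIs in cells with and 6 in cells without Pi16 or Dpp4 in WT IP, and 255 against 0 in KO IP, at least 7.52-fold higher. Fbn1, the main fibrillin of microfibrils, differed less, at 1.39 and 1.46. Genes outside the list followed the same division. Bmp6, a bone morphogenetic protein, had 313 against 10 UMIs in WT IP and 217 against 1 in KO IP (3.72 and 3.68), Adamts16, a matrix protease, 246 against 0 and 142 against 0 (at least 36.2-fold and 4.19-fold), and Sfrp4, a Wnt antagonist, gave 3.31 and 3.42. Serpinb2, with 117 and 315 UMIs against 0, came from 4 and 8 cells alone.

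Some of the committed preadipocyte genes that were lower in cells with Pi16 or Dpp4 act in lipid handling. Fabp4, a fatty acid carrier, had 709 UMIs in cells with and 983 in cells without in WT IP and 448 and 313 in KO IP, log2 ratios of -1.65 and -2.98. Pparg, the nuclear receptor that drives adipocyte formation and a member of that list, gave -1.70 and -2.25, and Lpl, lipoprotein lipase, -0.86 and -0.99. With the highest cells left out, the KO IP values were -2.80 for Fabp4, -1.73 for Pparg and -0.52 for Lpl, the last short of 1.5-fold. The chemokine gene Cxcl14 was also lower in cells with Pi16 or Dpp4, at -1.93 and -1.37, and Gdf10, linked to cells that hold back adipogenesis, at -1.13 and -1.19. Hp was lower at -1.30 and -1.91, but 93.3% of its UMIs in the KO IP cells without lay in 1 cell, and with the highest cells left out the KO IP value was 1.51. The wider list of adipogenic factors gave 2 higher and 1 lower of 13 in WT IP (median 0.29) and 2 higher and 8 lower of 13 in KO IP (-0.84). The regulators of adipogenesis that hold Gdf10 gave 1 higher and 1 lower of 6 in WT IP and 3 and 3 of 7 in KO IP. Over all genes 10.1% were higher and 9.10% lower in WT IP, and 20.3% and 21.7% in KO IP.

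**Figure D3:**
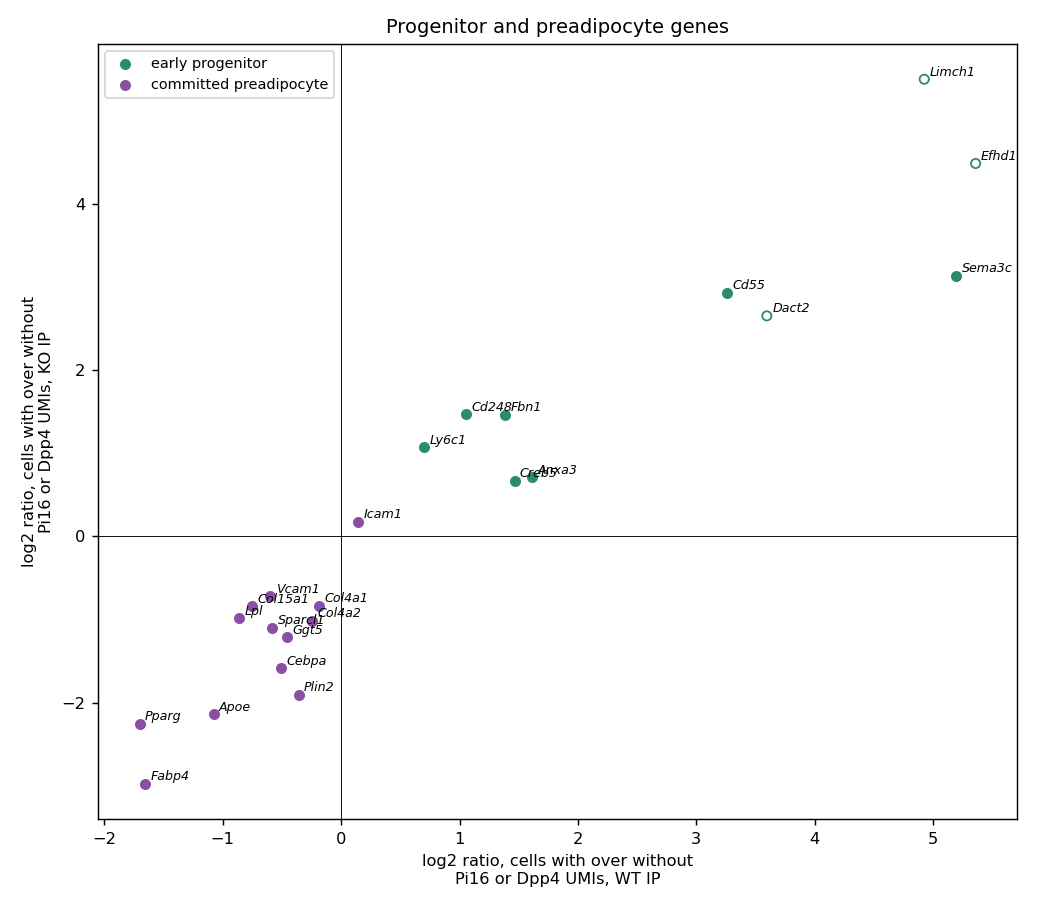
Log2 ratio of CPM in cells with over cells without Pi16 or Dpp4 UMIs, in WT IP (horizontal) and KO IP (vertical), for early progenitor genes other than Pi16 and Dpp4 (green) and committed preadipocyte genes (purple). Open circles mark genes with 0 UMIs in 1 of the groups, where the plotted ratio depends on the 0.5 UMI added; the lists lie in opposite corners except Icam1, which is near 0 in both libraries.

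For KO IP against WT IP, UMIs were summed over the members and compared as log2 ratios of CPM after adding 0.5 UMI. Of 11919 genes with at least 20 UMIs, 12.2% were higher and 7.38% lower past 1.5-fold in KO IP, with a median ratio of 0.03. Without the mesothelial-marker cells, 221 in WT IP and 151 in KO IP, 9.85% of 11534 genes were higher and 7.20% lower, with a median of 0.04. The 2 sets of cells gave different leading genes. With all members, Saa3, an acute-phase protein (7100 UMIs in KO IP against 61 in WT IP, 7.14), Slpi, a protease inhibitor (5780 and 54, 7.02) and Clu, a secreted chaperone (2340 and 115, 4.63) were among the 12 highest, and the mesothelial-marker cells held 78.4%, 99.6% and 95.5% of their KO IP UMIs. Without these cells Slpi stood at 0.29, Clu at 1.09 and Lgals7, from 4.62, at -0.48. Saa3 stood at 5.29, and 55.4% of its KO IP UMIs and 82.0% of its WT IP UMIs lay in 1 cell each. The ratios below are therefore those without mesothelial-marker cells. Shares of cells given with them are not thinned, and the median depth of the cells was 22145 UMIs in WT IP and 17876 in KO IP.

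Among genes with at least 200 UMIs that were found in at least 10% of cells of 1 library, gene models aside, the highest ratio in KO IP was that of Chl1, a cell adhesion molecule (GRCm38 chr6:103510586-103750211), with 234 UMIs in KO IP against 16 in WT IP (log2 ratio 4.48). Its UMIs were in 14.6% of KO IP and 2.71% of WT IP cells. Lcn2, an iron-binding acute-phase protein, had 277 and 20 UMIs (4.41), with 41.5% and 55.0% of them in 1 cell. Wnt4, a Wnt ligand, had 189 and 35 UMIs (3.06), and Sfrp2, a secreted Wnt modulator, 891 and 336 (2.05, 1.87 to 2.24). Eln, elastin, had 2456 and 1396 UMIs (1.46, 1.37 to 1.56), with 20.9% in 1 KO IP cell, and stood at 1.21 with the highest cells left out. Rcan2, a calcineurin regulator, had 271 and 116 UMIs (1.87) in 48.3% and 23.5% of cells. Sult1e1, oestrogen sulfotransferase, had 1257 and 665 UMIs (1.56). When mural-marker cells and shared barcodes were left out as well, 159 WT IP and 145 KO IP cells, the ratios of Wnt4 (3.14), Rcan2 (1.83) and Eln (1.27) stayed past 1.5-fold, and so did Sfrp2 (1.66) and Sult1e1 (0.98).

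By the same limits the lowest ratio was that of Cxcl14, a chemokine (GRCm38 chr13:56288643-56296551), with 93 UMIs in KO IP against 1155 in WT IP (log2 ratio -2.98, -3.31 to -2.68), in 11.9% and 24.4% of cells. It stood at -2.43 without mural-marker cells and shared barcodes. Slco2a1, a prostaglandin transporter, had 35 and 354 UMIs (-2.67), the adhesion receptor gene Adgre5 stood at -2.10, and Pappa, a protease of insulin-like growth factor binding proteins, had 26 and 176 UMIs (-2.09). With the mesothelial-marker cells kept, Pappa stood at -0.03, or 0.20 without shared barcodes, and Aldh1a2, a retinoic acid enzyme at -1.99 without them, at -0.49. Contractile genes belonged to a few cells: Tagln stood at -2.85 but at -0.01 without mural-marker cells and shared barcodes, and for Acta2 253 of its 285 WT IP UMIs lay in shared barcodes. Tnc, a matricellular protein, stood at -2.21 and at -0.81 without those cells. Hspa1a, a stress-induced chaperone, stood at -1.84 and, without those cells, at -1.24, but at -0.51 when shared barcodes alone were left out.

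**Figure D4:**
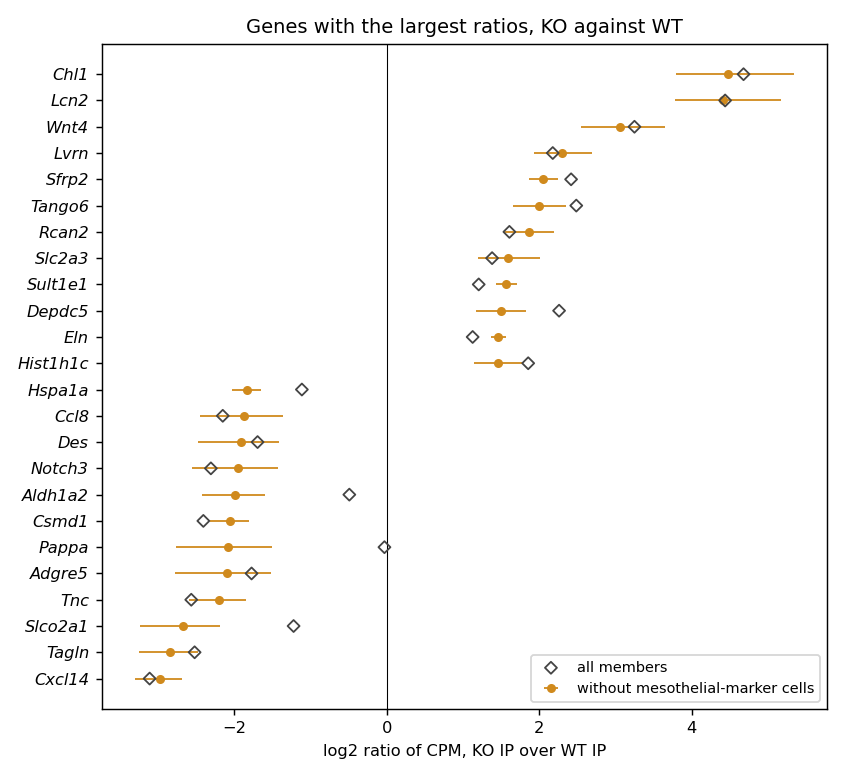
Log2 ratio of CPM, KO IP over WT IP, for the 12 highest and 12 lowest genes in visceral stromal cells without mesothelial-marker cells (orange, with 95% counting intervals), and for the same genes with all members (open diamonds). Pappa, Aldh1a2 and Slco2a1 are far closer to 0 with all members, and each gene lies on the same side of 0 in both sets.

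The early progenitor and committed preadipocyte counts between the genotypes stand beside 9.85% higher and 7.20% lower of all genes. Of 13 early progenitor genes, 2 were higher and 1 lower in KO IP (median 0.36, and 0.01 with all members), with Pi16 at 0.88 (0.54 with all members), Sema3c at 0.50 and Cd55 at 0.46, while Wnt2 had 10 and 70 UMIs (-2.10). Of 14 committed preadipocyte genes 7 were lower with all members (median -0.58), where 7.38% of all genes were lower. Without mesothelial-marker cells none was higher and 1 lower, a share like the 7.20% of all genes (median -0.33). Fabp4 had 728 and 1692 UMIs (-0.57), Pparg stood at -0.08 and Lpl at -0.24. The 1 lower gene was Cd36, a fatty acid receptor, with 2 and 52 UMIs, 48.1% of the latter in 1 cell. Among regulators of adipogenesis, Mgp, which encodes matrix Gla protein, had 6488 and 27324 UMIs (-1.43, -1.47 to -1.39) in 72.2% and 91.4% of cells, whereas Gdf10 stood at 0.93 and Fmo2, a monooxygenase, at 0.97. Agt had 108 and 352 UMIs (-1.05, -1.38 to -0.74), with 31.5% of the KO IP UMIs in 1 cell, while Tcf21 differed less (-0.14, -0.37 to 0.08). Wt1 stood at 0.75 and Gata6 at 0.77.

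The 6 matrix lists had medians between -0.29 and 0.16, and 4 of them held genes past 1.5-fold in both directions, where 9.85% of all genes were higher and 7.20% lower. Fibrillar collagens were close to even, with 2 of 9 higher and none lower (median 0.09), and Col1a1 at -0.06, Col3a1 at 0.07 and Col14a1 at 0.77. Of 20 basement membrane and network collagen genes 3 were higher and 2 lower (median -0.18, and -0.47 with all members, when 10 were lower), the lower ones being Col8a1, a short-chain collagen with 282 and 1151 UMIs (-1.38), and Col18a1 (-0.66). Col4a1, the main chain of basement membranes, stood at -0.55, short of 1.5-fold. Elastic fibre and proteoglycan genes gave 4 higher and 3 lower of 23 (median 0.16): besides Eln, Mfap4 had 688 and 487 UMIs (1.14), while Mfap2, another microfibril gene, had 388 and 1008 (-0.73). Of 13 matricellular genes 1 was higher and 4 lower (median -0.29), with Thbs1, an activator of TGF-beta, at 684 and 2765 UMIs (-1.37) and Thbs2 at -0.60. Matrix turnover genes gave 1 higher and 7 lower of 19 (median -0.06), among them the inhibitors Timp1 (1304 and 5393 UMIs, -1.40) and Serpine2 (388 and 1249, -1.04), with Mmp2 at 0.14. Timp1 stood at -0.63 with all members and at -0.30 when shared barcodes alone were left out. It stood at -1.66 when mesothelial-marker, mural-marker and shared-barcode cells were all left out. Of 18 collagen processing genes none was higher and 1 lower (median 0.07).

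Chemokine genes ranged widely. Of 25 cytokine and chemokine genes 4 were higher and 10 lower past 1.5-fold (median -0.44, and -0.27 with all members), where 9.85% of all genes were higher and 7.20% lower. Cxcl12, which holds leukocytes and progenitors in place, had 598 UMIs in KO IP against 1947 in WT IP (-1.06, -1.19 to -0.92), in 68.2% and 83.3% of cells, and Ccl8, a monocyte attractant, 35 and 203 (-1.87). Ccl2, another monocyte attractant, had 642 and 2134 UMIs (-1.09) but stood at 0.19 once shared barcodes and mural-marker cells were left out, with 571 and 454 UMIs, so its lower level was not seen in the remaining cells. Cxcl9, an interferon-induced chemokine chosen after its values were seen, had 2 and 550 UMIs, 64.5% of them in 1 WT IP cell. Il33, an alarmin, had 276 and 281 UMIs (0.62). Interferon response genes gave 1 higher and 5 lower of 22 (median -0.25), with Isg15 at -1.30, and MHC class I genes none higher and 5 lower of 15 (median -0.35), with H2-Q4 at -1.27 and B2m at -0.35. With all members these medians were -0.01 and -0.06, and the interferon median was 0.27 after thinning, with 4 higher and 2 lower of 12.

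Complement genes gave 2 higher and none lower of 11 (median 0.34, and 0.40 with all members), against 9.85% higher and 7.20% lower of all genes. Cfb, factor B of the alternative pathway, stood at 0.79 and Clu at 1.09, while C3, the central component, had 12530 and 13710 UMIs (0.52) and Serping1, the C1 inhibitor, stood at 0.01. Without shared barcodes and mural-marker cells the complement median was 0.09. Vascular ligands gave 7 higher and 2 lower of 19 (median 0.44), with Vegfd, a lymphangiogenic factor, at 871 and 835 UMIs (0.71), Angpt1, the activating ligand of Tie2, at 0.72, Fgf2 at 0.86 and Angptl1 at 86 and 38 UMIs (1.81). Hgf, hepatocyte growth factor, had 61 and 190 UMIs (-0.98), and Vegfa, the main endothelial growth factor, stood at 0.21 (-0.20 to 0.61). For this list the median was 0.26 in the cells without any of the 3 features, and after thinning all members to 3000 UMIs it was 0.057, with 2 higher and 3 lower of 14.

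Metabolic and stress lists were mixed, and their counts stand beside 9.85% higher and 7.20% lower of all genes. Cholesterol genes gave none higher and 9 lower of 18 (median -0.58, and -0.23 with all members, when 3 were lower, or -0.11 with 1 higher and 1 lower when shared barcodes alone were left out), with Fdps at 46 and 159 UMIs (-1.13), Cyp51 at 38 and 139 (-1.21) and Sqle, an enzyme of sterol synthesis, at -1.12. Antioxidant genes gave 5 higher and none lower of 26 (median 0.16), led by Hmox1, haem oxygenase, with 867 and 500 UMIs (1.44), 42.0% of the former in 1 cell. Genes of p53 and cell-cycle arrest gave 7 higher and 1 lower of 20 (median 0.22), with the p53 targets Mdm2 at 0.62 and Ccng1 at 0.67, Cdkn1a, which encodes p21, at 0.09 and Trp53 at -0.06, and Gdf15, a stress cytokine, lower with 18 and 130 UMIs (-2.17). The balance of this list depended on the weighting of cells: as a mean over all members 2 genes were higher and 4 lower (median 0.006), after thinning 2 and 2 (-0.03), and the median was also -0.03 in the cells without any of the 3 features. Hypoxia genes gave 4 higher and 2 lower of 23 (median 0.22). The remaining lists had medians of 0.13 for the insulin-like growth factor axis, 0.09 for glucocorticoid response, -0.18 for immediate early, -0.10 for heat shock, 0.19 for retinoid and steroid enzyme, 0.21 for circadian clock and -0.17 for mitochondrially encoded genes.

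**Figure D5:**
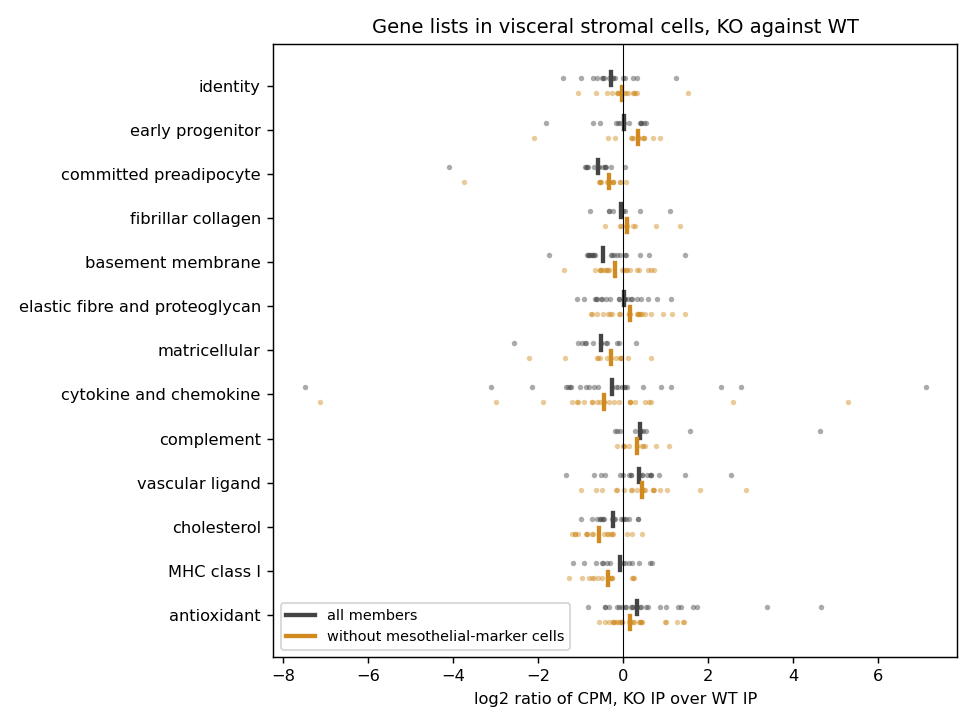
Log2 ratio of CPM, KO IP over WT IP, for each compared gene (dots) of 13 gene lists in visceral stromal cells, with the list median as a vertical bar, for all members (grey) and without mesothelial-marker cells (orange). All 13 medians lie within 0.6 of 0 on the log2 scale, committed preadipocyte and cholesterol medians lie below 0 in both sets, and complement and vascular ligand medians above it.

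The reporter switches from membrane tdTomato to membrane GFP where the recombinase has acted. GFP was found in 32.0% of WT IP members (25.9 to 38.6) and 16.5% of KO IP members (11.1 to 23), against 62.3% and 33.3% of the leukocytes of the same libraries. After thinning the shares were 21.3% and 10.5% in members and 57.5% and 30.5% in leukocytes. Its counterpart tdTomato was detected in few cells, 9.01% and 8.54% of members and 13.1% and 12.9% of leukocytes, so the share of cells recombined cannot be read from these values. GFP was thus less frequent in KO IP in both kinds of cell, and in the members it stood at 356 and 98.9 CPM. Tek, the gene whose regulatory sequence drives the recombinase, had a UMI in 50.5% and 46.3% of members at 77.1 and 79.1 CPM, against 0.346% and 2.49% of leukocytes. In WT IP 39.3% of the 112 members with a Tek UMI and 24.5% of the 110 without held GFP, and in KO IP 17.1% of 76 and 15.9% of 88. The cells with Tek were deeper, at medians of 25227 against 17756 UMIs in WT IP and 25550 against 13252 in KO IP, and the part of depth in these shares was not tested.

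A ribosomal gene and its copy differed between the libraries in opposite directions. Gm10260 (GRCm38 chr13:97760072-97760632) had 455 UMIs in KO IP against 8 in WT IP over all members (log2 ratio 6.03), in 67.7% and 3.60% of cells, and Rps18, which encodes a small-subunit protein (GRCm38 chr17:33951999-33956001), had 3393 and 7294 UMIs (-0.82). Over 456 coding bases the reference sequences differ at 4 positions (99.1% identical), counted from 1 at the first coding base, Rps18 first: T186C, A337C, G371A and G431A. The stretch from 411 to 451 is shown with the last of these in capitals.
Rps18: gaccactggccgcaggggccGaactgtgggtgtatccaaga
Gm10260: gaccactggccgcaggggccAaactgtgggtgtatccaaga
Reads that lie within the coding bases and cover no such position cannot be told apart between the genes, so both values are uncertain. Sequence outside the coding bases was not compared. Other gene models also differed between the libraries, in either direction, and their sequences were not compared with other genes. Gm11361 had 464 and 43 UMIs (3.70) in 70.7% and 17.6% of cells, and Gm8797 29 and 317 UMIs (-3.14) in 14.6% and 60.8%.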

How the data were processed

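Single-cell 3' libraries of WT and KO adipose tissue were used, 1 library per group. Per the file headers the authors ran Cell Ranger 7.0.0, and what they deposited are unnormalised UMI counts. The submitters' processing notes also name STAR 2.6 and the build mm10. Each table held 32290 features, 5 of them reporters. Member counts were summed per library and scaled to CPM, and genes with at least 20 UMIs in both groups together were compared as log2 ratios with 0.5 UMI added; a gene past 1.5-fold was called higher or lower. Where a gene had 0 UMIs, 3 counts over the group were used as its limit. Ratios carry exact conditional binomial intervals. Genes were named by rule, as the 12 highest and 12 lowest ratios among genes with at least 200 UMIs and a UMI in at least 10% of members of 1 library, with 3 gene models each way (8 each way for the depot and for Pi16 or Dpp4), plus list genes; the rule was applied again without mesothelial-marker cells. The members, 39 lists and rules were chosen with earlier results of these data known. Thinned shares are expected shares for 3000 UMIs drawn per cell. The gene statistics were tested on simulated data. Locations came from GENCODE on GRCm38. Scripts ran in Python 3.11.15 with scanpy 1.11.5, pandas 2.3.3, scipy 1.17.1, numpy 2.4.6 and matplotlib 3.10.9.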

Additional observations from a re-analysis of the deposited data

Results flagged for a closer look

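The median log2 ratio of 11 complement genes, KO over WT, was 0.40 in the stromal cells of IP and -0.23 in those of SC chosen by the same rule. The pair of depots thus lay on opposite sides of 0, and the difference was not tested, since each depot and genotype had 1 library. Both values are over all stromal cells. Without shared barcodes the IP median was 0.22, without mesothelial-marker, mural-marker and shared-barcode cells together it was 0.09, and 50 of the 156 KO SC cells were shared barcodes.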

How the results depend on the processing

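No paired analysis was possible because each group had 1 library, and for the same reason no library could be left out. Without shared barcodes the member share in WT IP was 29.0%, and as shares of cells without Ptprc the values were 66.9% in WT IP and 57.7% in KO IP. The shares with Pi16 or Dpp4 after thinning were 34.0% and 54.7%. Genes higher past 1.5-fold numbered 1453 of 11919 in the comparison as reported and 934 of 6594 after thinning. They numbered 4319 of 19191 with no minimum beyond 1 UMI and 583 of 8270 with at least 100 UMIs. Genes lower numbered 880 of 11919 as reported, 3412 of 19191 with no minimum and 401 of 8270 with at least 100 UMIs. The early progenitor median was 0.36 without mesothelial-marker cells, 0.25 without mesothelial-marker, mural-marker and shared-barcode cells together, 0.27 as a mean over cells, 0.16 after thinning and 0.074 with at least 100 UMIs. The committed preadipocyte median was -0.33 without mesothelial-marker cells and -0.23 without all 3 kinds of cell. For basement membrane genes the values were -0.18 in both of these settings, -0.11 as a mean over cells and -0.051 after thinning. The cytokine and chemokine median was -0.15 without shared barcodes, and the complement median 0.22 without shared barcodes, 0.092 without all 3 kinds, 0.26 as a mean over cells and 0.24 after thinning. Among list medians whose counting interval over all members left out 0, directions turned for collagen processing genes (-0.15 as reported over all members, 0.066 without mesothelial-marker cells and 0.12 without all 3 kinds), the IGF axis (0.21, and -0.14 after thinning), heat shock genes (0.27, and -0.10 without mesothelial-marker cells) and mitochondrially encoded genes (-0.10, and 0.061 as a mean over cells). They also turned for Lgals7 (4.62, -0.48 without mesothelial-marker cells and -0.021 without all 3 kinds) and Acta2 (-1.88, 0.49 without shared barcodes and 0.50 without mural-marker cells). Medians whose interval held 0 also changed sign, for retinoid and steroid enzyme (-0.13 to 0.19) and adipogenesis regulator genes (-0.19 to 0.12) and fibrillar collagens (-0.04 to 0.09) without mesothelial-marker cells, p53 and arrest genes (0.15 to -0.03) without all 3 kinds, and interferon genes (-0.01 to 0.27) after thinning. Beyond the cells removed, the cause was not tested. The alternatives that remove shared barcodes, mural-marker cells or single highest cells were chosen after seeing the data. So was the limit of 10000 UMIs used for the division by Pi16 or Dpp4.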
